A study of Arabidopsis thaliana with 6 samples.

Results

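The core circadian clock of Arabidopsis thaliana was followed through 10 genes, namely CCA1, LHY, PRR9, PRR7, PRR5, TOC1, GI, ELF4, LUX and RVE8. They were chosen by locus code for their place in the clock, with earlier results of these data known, and the choice used no threshold on a measured value. All 10 were found among the 28259 loci of the tables, and all 10 passed the filter on low counts. RNA-seq libraries were made from whole seedlings of the ecotype Columbia (Col-0), a wild type, at an age of 10 days. One group, called treated here, received the medium-chain 3-hydroxy fatty acid 3-OH-C10:0, which Arabidopsis senses through the receptor kinase LORE, and the other received the solvent dimethyl sulfoxide (DMSO). Seedlings of both groups had been grown with 10 h of light and 14 h of dark, had spent the night before treatment in water under light, and were harvested 8 h after the water was exchanged. The dose is stated as 5 microM in the sample characteristics but as 5 mM in the treatment protocol. The labels give the interval after treatment but no time of day for any library, and they do not say whether the 3 libraries of a group came from separately grown seedlings, so p-values describe only the spread between these libraries.

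The plant clock is a set of transcription factors and partner proteins that repress and activate each other in turn through the day. CCA1 and LHY are MYB-like repressors of the dawn, the pseudo-response regulators PRR9, PRR7, PRR5 and TOC1 follow each other from morning to evening and repress CCA1 and LHY, and ELF3, ELF4 and LUX form the evening complex, a night-time repressor. RVE8, a MYB-like relative of CCA1, works in the opposite sense and activates evening genes, together with the LNK coactivators. In leaves the clock times photosynthesis, growth, flowering and the readiness of immune responses.

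The evening element, through which CCA1, LHY and RVE8 are known to bind evening genes, was searched for in the 1000 bases before the annotated start of each gene. The search used the octamer AAATATCT on both strands and asked for no further letter on either side. This octamer was present in 5 of the 10 core genes, TOC1, PRR5, GI, ELF4 and LUX, against 15.3% of 27434 protein-coding genes. The match nearest to the start of each is given in capitals with 20 bases on either side, on the strand of the gene, because these 5 genes were all among the abundant members described later. A match on the opposite strand reads AGATATTT.
TOC1: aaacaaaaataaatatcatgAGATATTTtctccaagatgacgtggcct
PRR5: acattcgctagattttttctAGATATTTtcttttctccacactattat
GI: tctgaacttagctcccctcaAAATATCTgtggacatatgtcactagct
ELF4: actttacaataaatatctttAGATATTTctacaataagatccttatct
LUX: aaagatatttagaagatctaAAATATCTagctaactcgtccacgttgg

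In TAIR10.1 these windows lie at chr5:24674792-24674839 (plus strand), chr5:8358706-8358753 (minus strand), chr1:8061141-8061188 (plus strand), chr2:16735166-16735213 (minus strand) and chr3:17182970-17183017 (plus strand). None of them touches an annotated gene. TOC1 held 1 match in its window, and PRR5, GI, ELF4 and LUX held 3 each.

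The G-box, CACGTG, a palindrome bound by light-signalling factors of the bHLH and bZIP families, was present upstream of CCA1, LHY, PRR9, PRR7, LUX and RVE8, which is 6 of 10 members against 14.8% of all genes. It is shown for the dawn and daytime members, in which no evening element was found. The matches of RVE8 fell inside the neighbouring gene AT3G09590 and are not shown.
CCA1: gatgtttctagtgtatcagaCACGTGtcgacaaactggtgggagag
LHY: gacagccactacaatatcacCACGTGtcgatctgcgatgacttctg
PRR9: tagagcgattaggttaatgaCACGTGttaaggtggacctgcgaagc
PRR7: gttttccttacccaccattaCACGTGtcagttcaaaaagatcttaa

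These windows lie at chr2:19245378-19245423 (plus strand), chr1:37926-37971 (minus strand), chr2:19232415-19232460 (plus strand) and chr5:642206-642251 (minus strand). Of the other motifs searched on both strands, the CCA1-binding site AAAAATCT was found upstream of 3 members (21.2% of all genes), the LUX-binding site GATTCG or GATACG upstream of 7 (39.8%), and the W-box TTGACC or TTGACT, bound by WRKY factors, upstream of 5 (67.3%). No matches to different motifs overlapped in these 10 windows. A match is a string of letters, and no binding was measured.

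Estimated counts summed to between 18064723 and 27131500 in treated libraries and to between 19390988 and 21000782 in DMSO libraries, so that 3 counts in 1 library corresponded to 0.115 to 0.168 CPM (counts scaled to a common library size, here by the trimmed mean of M values). Leaf markers (RBCS1A, LHCB2.1 and RCA) and 6 root markers were detected in every library, and flower and seed markers (AP3, CRU3 and AT2S3) summed to at most 0.713 CPM. The leaf markers summed to 7490 to 10900 CPM in treated libraries and to 28500 to 30800 CPM in DMSO libraries, and RBCS1A and RCA fell. LHCB2.1 did not pass (log2 fold change -0.32, adjusted p = 0.524 in edgeR). The root markers summed to 659 to 945 CPM in treated and to 1310 to 1410 CPM in DMSO libraries, where PYK10, COBL9 and PLT1 fell, SCR rose, and 2 did not pass. The 2 guard cell markers summed to 13.9 to 16.4 CPM in treated and to 21.9 to 22.2 CPM in DMSO libraries, where MYB60 fell and FAMA did not pass. The part of these markers in the values below was not tested. Of 19768 tested genes, 71.4% differed between treated and DMSO seedlings at an adjusted p under 0.05. Treated replicate 2 stood apart in several clock genes and had the highest level of all 6 libraries for CCA1, LHY, PRR9 and RVE8, so results on these genes are also given without it.

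RVE8 rose in treated seedlings, and the other 9 core clock genes did not pass the test, so that 1 of 10 was called, against 71.4% of all tested genes. By direction, 1 of 10 rose and none fell, against 35.6% of all tested genes that rose and 35.8% that fell. An unadjusted p under 0.05 in edgeR was found for 2 of 10, against 14562 of 19768 tested genes. DESeq2 likewise called RVE8 and no member as lower, while it called 67.8% of all tested genes. RVE8 was also the 1 member of 10 that was called with a change of at least 2-fold, against 30.5% of all tested genes. In CPM, the treated and DMSO libraries did not overlap for RVE8 and overlapped for the other 9. By the same measure they failed to overlap for 75.9% of all tested genes. In FPKM, ELF4 did not overlap either, with 115 to 125 in treated and 135 to 163 in DMSO libraries. The median absolute log2 fold change of the 10 members was 0.22, beside 0.64 for all tested genes, and their median log2 fold change was 0.03, beside -0.038. Among the 6 abundant members, each over 50 CPM, none was called, while 84.9% of the tested genes with a mean of at least 50 CPM were; for genes under 5 CPM, where the other 4 members lie, 55.1% were called. These level bounds were set after the values were seen. In whole seedlings, fewer cells of a type and less RNA per cell cannot be told apart. PRR7 and ELF4 passed as lower under total-count scaling and in limma on FPKM, which put the count at 3 of 10 in each of these settings. Of all tested genes, 71.5% were called under total-count scaling, and 71.7% and 71.5% in limma on log2(FPKM + 1) and log2(FPKM + 0.1). The count was also 3 of 10 without treated replicate 2, against 66.2% of all tested genes. There LHY and PRR7 passed as lower beside RVE8 as higher. Without DMSO replicate 3 the count was again 3 of 10, against 66.6% of all tested genes. There ELF4 passed as lower, and PRR5 and RVE8 passed as higher.

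**Figure D1:**
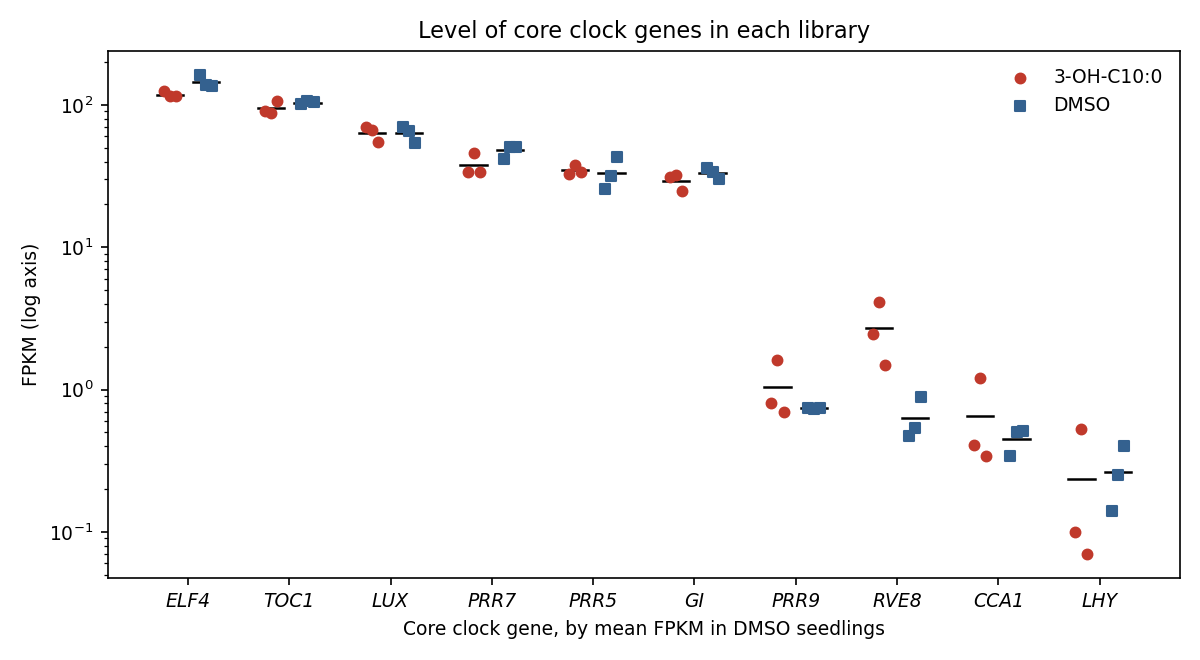
FPKM of the 10 core clock genes in each library on a log axis, with treated libraries (circles) left of DMSO libraries (squares) and bars at the group means, ordered by the mean in DMSO seedlings. ELF4 averages 118 FPKM in treated and 145 FPKM in DMSO seedlings, and LHY averages 0.233 and 0.263 FPKM. The groups are apart for RVE8, with treated libraries higher, and for ELF4, with treated libraries lower.

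The levels of the members spanned a wide range, and their order was almost the same in both groups. FPKM (fragments per kilobase of transcript, scaled to library depth) allows levels of different genes to be compared. The place of a gene in the order depends on the transcript length used. For LUX the deposited values imply 1440 bases, against 3916 bases of exon blocks. For RVE8 they imply 1348 against 2345 bases, and for PRR5 2257 against 1677 bases. ELF4, TOC1, LUX and PRR7 held places 1 to 4 in every library of both groups, and CCA1 and LHY held places 9 and 10 in every library. Mean levels in treated seedlings ran from 118 FPKM for ELF4 over 95.5 for TOC1, 63.5 for LUX, 37.9 for PRR7, 34.7 for PRR5 and 29.3 for GI to 2.69 for RVE8, 1.04 for PRR9, 0.65 for CCA1 and 0.233 for LHY. In DMSO seedlings they ran from 145 FPKM for ELF4 over 104 for TOC1, 63.1 for LUX, 47.9 for PRR7, 33.4 for PRR5 and 33.3 for GI to 0.737 for PRR9, 0.63 for RVE8, 0.45 for CCA1 and 0.263 for LHY. A wide gap thus lay between GI and the next member in either group. PRR7 and PRR5 overlapped in their library ranges in both groups, PRR5 and GI overlapped in DMSO seedlings only, and every neighbouring pair below GI overlapped in both groups. RVE8 stood above PRR9 in every treated library, and it stood below PRR9 in 2 of 3 DMSO libraries.

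RVE8 (AT3G09600, chromosome 3, 2946239 to 2949017, plus strand, 6 exon blocks), the activator of evening genes, stood at 3.41, 5.67 and 2.1 CPM in treated replicates 1 to 3, against 0.545, 0.755 and 1.11 CPM in DMSO replicates 1 to 3. All 3 treated libraries lay above all 3 DMSO libraries. These levels rest on 67, 101 and 55 counts in treated and on 11, 16 and 24 counts in DMSO libraries. The closest pair, 55 and 24 counts, had exact Poisson 95% intervals of 41.4 to 71.6 and 15.4 to 35.7, which cover counting error only. These intervals are on raw counts and were not scaled to depth. Treated replicate 3 held 27131500 estimated counts in total and DMSO replicate 3 held 20816749. The gap between the intervals therefore does not show that the levels in CPM are apart beyond counting error. The log2 fold change was 2.17 ± 0.413 (SE, n = 3 per group; adjusted p = 0.00108 in edgeR's quasi-likelihood test), a 4.51-fold higher level with a 95% interval of 2.37 to 8.61. A larger absolute log2 fold change was found in 7.66% of all tested genes. Without treated replicate 2 the log2 fold change was 1.76, still past the threshold, and on log2(FPKM + 1), where low genes are understated, it was 1.12.

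The dawn repressors CCA1 and LHY were low in all libraries and did not separate the groups. CCA1 (AT2G46830, chromosome 2, 19245591 to 19248915, plus strand, 8 exon blocks) stood at 0.968, 2.75 and 0.689 CPM in treated libraries, against 0.743, 1.13 and 1.11 CPM in DMSO libraries. Treated replicate 2 was the highest library and treated replicate 3 the lowest, so the DMSO values lay inside the treated range. The log2 fold change was 0.50 ± 0.505 (95% interval -0.64 to 1.65, adjusted p = 0.393 in edgeR), and it turned to -0.28 without treated replicate 2, where the adjusted p was again above the threshold. LHY (AT1G01060, chromosome 1, 33365 to 37871, minus strand, 9 exon blocks), the closest partner of CCA1, stood at 0.255, 1.46 and 0.191 CPM in treated libraries, against 0.347, 0.661 and 1.07 CPM in DMSO libraries. Here too treated replicate 2 was highest, while treated replicates 1 and 3 lay below every DMSO library. Treated over DMSO, the log2 fold change was -0.23 ± 0.770 (95% interval -2.02 to 1.55, adjusted p = 0.799 in edgeR), and without treated replicate 2 it was -1.63 with an adjusted p of 0.0362. Each of the treated replicates 1 and 3 held 5 counts of LHY (exact Poisson 95% interval 1.62 to 11.7) and treated replicate 2 held 26 (17.0 to 38.1).

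**Figure D2:**
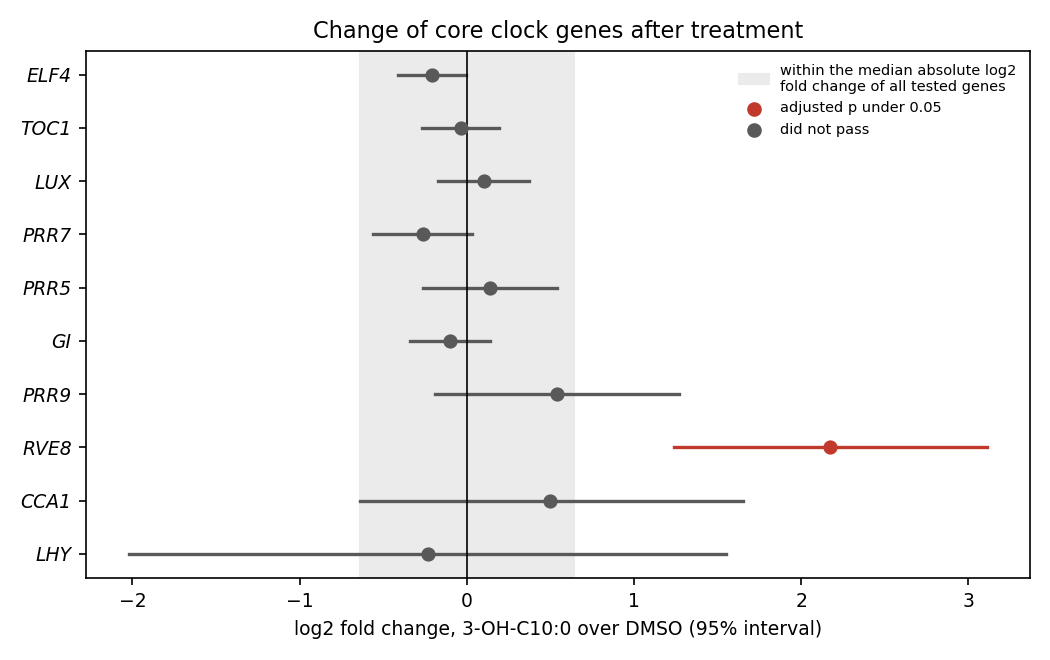
Log2 fold change of each core clock gene, treated over DMSO, with its 95% interval (n = 3 libraries per group), and a grey band that spans plus and minus the median absolute log2 fold change of all tested genes, 0.64. RVE8 at 2.17 lies outside the band, the point estimates of the other 9 genes lie inside it, and the intervals of CCA1, LHY and PRR9 reach beyond it.

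The pseudo-response regulators, which repress CCA1 and LHY in succession through the day, spanned a wide range of levels, and none of the 4 passed the test between the groups. PRR9, the morning member (AT2G46790, chromosome 2, 19232607 to 19235179, plus strand, 5 exon blocks), stood at 1.53, 2.97 and 1.3 CPM in treated libraries, against 1.29, 1.32 and 1.3 CPM in DMSO libraries. The DMSO libraries were nearly equal, treated replicate 2 was well above them, treated replicate 1 was slightly above them and treated replicate 3 lay among them. PRR9 had a log2 fold change of 0.54 ± 0.328 (95% interval -0.19 to 1.27, adjusted p = 0.161 in edgeR), and 0.12 without treated replicate 2.

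PRR7, a repressor of the later morning (AT5G02810, chromosome 5, 637681 to 642030, minus strand, 8 exon blocks), stood at 98.9, 132 and 99.2 CPM in treated libraries, against 114, 143 and 139 CPM in DMSO libraries. Treated replicates 1 and 3 lay below all DMSO libraries and treated replicate 2 lay among them. PRR7 had a log2 fold change of -0.26 ± 0.132 (95% interval -0.56 to 0.033, adjusted p = 0.0993 in edgeR). It passed the threshold without treated replicate 2 (-0.41, adjusted p = 0.0120) and without DMSO replicate 1 (-0.36, adjusted p = 0.0402), as well as in the settings named above.

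PRR5, which acts in the afternoon (AT5G24470, chromosome 5, 8356204 to 8358546, minus strand, 6 exon blocks), stood at 76.2, 86.9 and 78.9 CPM in treated libraries, against 55.5, 70.7 and 93.7 CPM in DMSO libraries. The treated values all lay within the DMSO range, which was the wider. For PRR5 the log2 fold change was 0.14 ± 0.173 (95% interval -0.26 to 0.54, adjusted p = 0.499 in edgeR). Without DMSO replicate 3, the highest DMSO library, it was 0.34 with an adjusted p of 0.0343, and without DMSO replicate 1 it was -0.029.

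TOC1, the evening member of the family (AT5G61380, chromosome 5, 24674963 to 24678550, plus strand, 6 exon blocks), was the member with the highest CPM and stood at 256, 242 and 302 CPM in treated libraries, against 263, 285 and 272 CPM in DMSO libraries. The DMSO values lay inside the treated range. For TOC1 the log2 fold change was -0.037 ± 0.104 (95% interval -0.27 to 0.19, adjusted p = 0.760 in edgeR), so that the fold lay between 0.831 and 1.14, and 97.0% of all tested genes had a larger absolute log2 fold change.

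GI, a large protein that stabilises the F-box photoreceptor ZTL and links the clock to flowering (AT1G22770, chromosome 1, 8061751 to 8067790, plus strand, 14 exon blocks), stood at 133, 134 and 107 CPM in treated libraries, against 143, 139 and 120 CPM in DMSO libraries. Treated replicate 3 was the lowest library, and the other treated libraries lay between the DMSO values. GI had a log2 fold change of -0.10 ± 0.109 (95% interval -0.34 to 0.14, adjusted p = 0.419 in edgeR).

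In the evening complex, ELF4 (AT2G40080, chromosome 2, 16734294 to 16734953, minus strand, 1 exon block), a small protein that brings its partner ELF3 into the nucleus, stood at 80.6, 71.9 and 73.7 CPM in treated libraries, against 96.8, 83.9 and 80.3 CPM in DMSO libraries. In CPM the groups overlapped by a narrow margin between treated replicate 1 and DMSO replicate 3. In FPKM all treated libraries lay below all DMSO libraries. The log2 fold change was -0.21 ± 0.0919 (95% interval -0.41 to -0.0033, adjusted p = 0.0641 in edgeR), and without DMSO replicate 3 it was -0.27 with an adjusted p of 0.0392. Total-count scaling shifted the median of all genes to -0.12, and relative to that median ELF4 stood at -0.17 and PRR7 at -0.22, the same distances as under the scaling used here, although both genes passed there with adjusted p of 0.0158 and 0.0441.

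LUX, the DNA-binding subunit of the complex (AT3G46640, listed in the tables as PCL1, chromosome 3, 17183042 to 17186959, plus strand, 2 exon blocks), stood at 104, 97.2 and 81.7 CPM in treated libraries, against 97.3, 93.0 and 74.3 CPM in DMSO libraries. The ranges overlapped over most of their width. LUX had a log2 fold change of 0.10 ± 0.122 (95% interval -0.17 to 0.37, adjusted p = 0.491 in edgeR). An opposite-strand gene, AT3G46650, overlaps LUX by 1507 bases but held no more than 4 counts in any library. ELF3, the scaffold of the complex, which was not among the 10 genes, stood at 119 ± 16.1 CPM in treated and 128 ± 12.8 CPM in DMSO seedlings (SD, n = 3 each; log2 fold change -0.10, adjusted p = 0.460 in edgeR).

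Treated libraries lay further apart for the 4 low members than for the 6 abundant ones. On the log2 CPM scale the 3 treated libraries spanned 2.44 for LHY, 1.86 for CCA1, 1.39 for RVE8 and 1.14 for PRR9, but 0.32 for TOC1, 0.32 for GI, 0.35 for LUX, 0.42 for PRR7, 0.19 for PRR5 and 0.16 for ELF4. DMSO libraries did not show this order, with spans of 1.39 for LHY, 0.92 for RVE8, 0.75 for PRR5 and 0.55 for CCA1, and with 0.036 for PRR9 as the smallest of the 10. The first set of genes is also the low one, where counting error is larger. Wider treated spans than these were rare among all tested genes, with 0.218% of them above LHY, 0.597% above CCA1, 1.71% above RVE8 and 3.21% above PRR9. These shares are over genes of all levels and were not taken among genes of like level. Treated replicate 2 was the highest treated library for 7 of the 10 members and for 28.4% of all tested genes. Among the other clock genes it was the highest treated library for 11 of 37 (29.7%), and treated replicate 3 was so for 17 of 37 (45.9%). The coactivator genes LNK1 (24.6, 32.2 and 18.8 CPM in treated libraries), LNK2 (28.2, 48.2 and 21.2 CPM) and LNK3 (1.48, 3.87 and 1.99 CPM) were also highest in treated replicate 2. LHCB1.1, a light-harvesting gene under the clock, stood at 133, 253 and 107 CPM in treated libraries, with replicate 2 again the highest, against 173, 329 and 467 CPM in DMSO libraries. Other genes under the clock went either way. PIF4 was also highest in treated replicate 2 (2.85, 5.16 and 3.83 CPM). LHCB1.3 was highest in treated replicate 3 (2540, 2620 and 3630 CPM) and GRP7 in treated replicate 1 (758, 703 and 670 CPM). LNK3 and LHCB1.1 were picked out after their values were seen. Among DMSO libraries, replicate 1 was the lowest for CCA1, LHY, RVE8, PRR7, PRR5, TOC1 and, by a small margin, PRR9. The share of all genes lowest in DMSO replicate 1 was not taken. DMSO replicate 3 was the highest DMSO library for LHY, RVE8 and PRR5, which is 3 of 10 members, and for 29.7% of all tested genes.

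**Figure D3:**
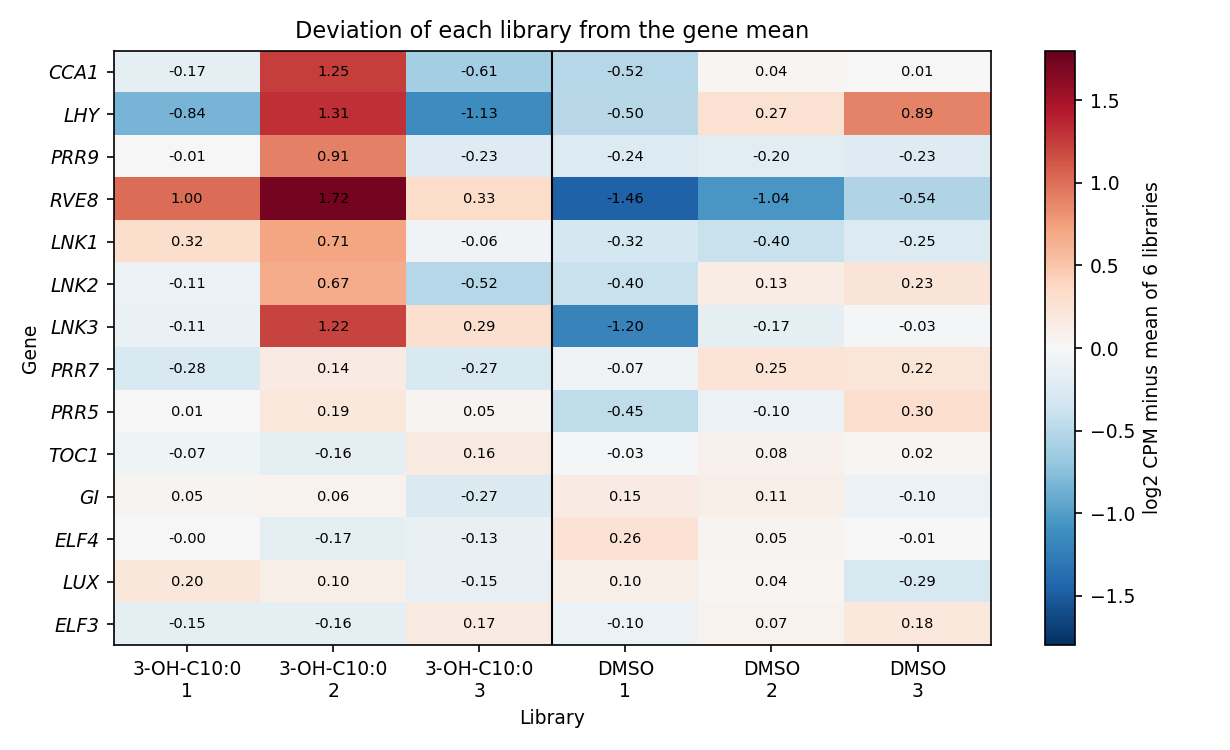
Deviation of each library (columns, treated left of DMSO) from the mean of the 6 libraries on the log2 CPM scale for the 10 core genes, ELF3 and LNK1 to LNK3 (rows), with red above and blue below the mean. Treated replicate 2 is at 1.25 for CCA1, 1.31 for LHY and 0.91 for PRR9, whereas TOC1 stays between -0.16 and 0.16 in all 6 libraries.

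Ratios between members were taken within each library and carry no test. The log2 ratio of CCA1 to TOC1 in FPKM was -7.80, -6.20 and -8.30 in treated libraries, against -8.22, -7.73 and -7.68 in DMSO libraries. The ratio of LHY to TOC1 was -9.83, -7.38 and -10.58 in treated libraries, against -9.50, -8.73 and -8.03 in DMSO libraries. In both ratios the treated libraries reached above and below the DMSO range. CCA1 exceeded LHY in every library, by 2.04, 1.18 and 2.28 on the log2 scale in treated and by 1.28, 1.0 and 0.35 in DMSO libraries, and these ranges overlapped as well.

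**Figure D4:**
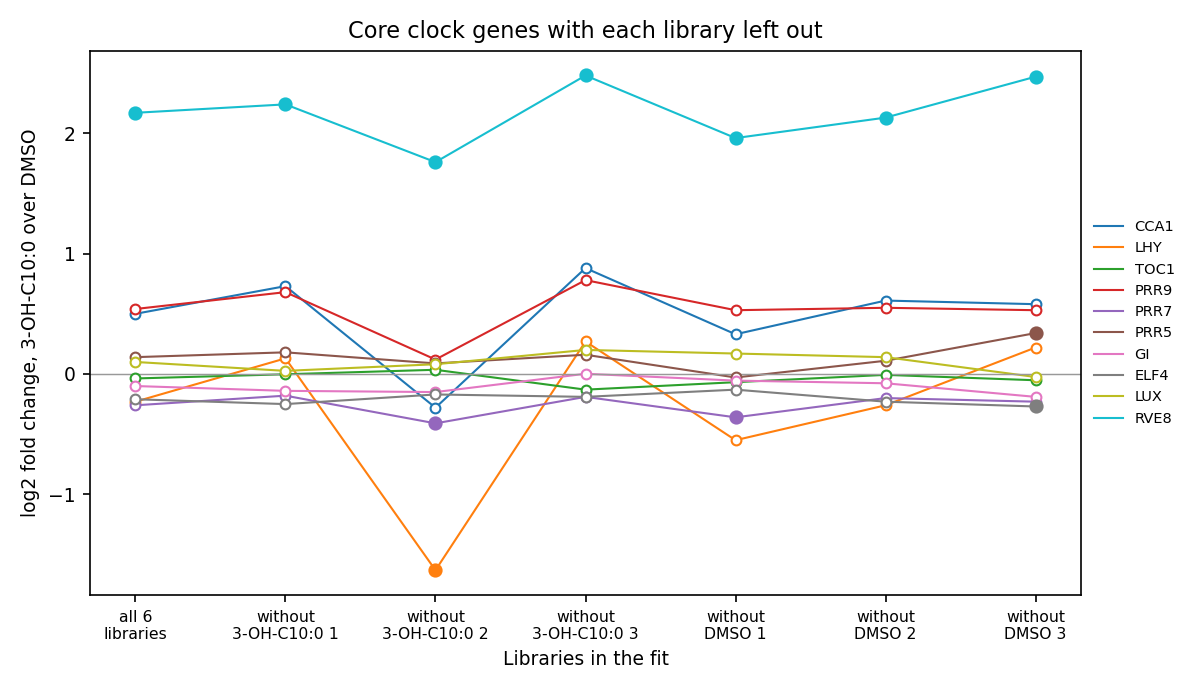
Log2 fold change of the 10 core clock genes, treated over DMSO, with all 6 libraries and with each library left out in turn; filled points have an adjusted p under 0.05. RVE8 stays between 1.76 and 2.48 and is filled throughout, while CCA1 and LHY drop to -0.28 and -1.63 without treated replicate 2.

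Genes whose profile over the 6 libraries lay closest to CCA1 and TOC1 were sought by the root mean square distance of centred log2 CPM among 19175 genes with at least 20 counts on average in the higher group. The 3 nearest to CCA1 were AT3G55240 (distance 0.263), LNK2 (0.266) and AT5G28010 (0.280). The 3 nearest to TOC1 were SYP23 (AT4G17730, 0.0271), SAR3 (AT1G80680, 0.0272) and AT3G54740 (0.0347). With 6 libraries, likeness to TOC1 means little more than a flat profile.

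Beyond the 10 genes, 38 further clock genes were examined, of which 37 were tested. Of these, 10 rose, 8 fell and 19 did not pass, which is 48.6% called against 71.4% of all tested genes, and their median absolute log2 fold change was 0.302. The member that rose most was ELF4-L1, a paralogue of ELF4, at 9.18 ± 2.13 CPM in treated and 0.645 ± 0.262 CPM in DMSO seedlings (log2 fold change 3.80 ± 0.289, adjusted p = 9.62e-07 in edgeR). It overlaps the opposite-strand gene CYP5 by 828 bases, CYP5 held 844 to 1051 counts in treated and 569 to 632 counts in DMSO libraries, and without known strandedness the reads of such pairs cannot be told apart. Another paralogue, ELF4-L4, fell to 7.12 ± 0.223 CPM in treated seedlings, against 11.5 ± 0.764 CPM in DMSO seedlings.

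LNK1, a coactivator that binds RVE8, rose to 25.2 ± 6.71 CPM in treated seedlings, against 15.7 ± 0.810 CPM in DMSO seedlings (0.68 ± 0.178, adjusted p = 0.00805 in edgeR). It overlaps the opposite-strand gene AT5G64160 by 245 bases. AT5G64160 held 278, 203 and 323 counts in treated and 187, 238 and 235 counts in DMSO libraries. LNK2 did not pass (32.5 ± 14.0 CPM in treated and 30.6 ± 6.78 CPM in DMSO seedlings). Of the closest relatives of RVE8, RVE6 rose by 0.32 on the log2 scale (adjusted p = 0.0184 in edgeR) and RVE4 stood at -0.24 (adjusted p = 0.0591 in edgeR). Neither call was stable, since RVE6 did not pass under total-count scaling, without treated replicate 1 or without DMSO replicate 3 (adjusted p of 0.0609, 0.0521 and 0.0887), while RVE4 passed as lower in 6 of 13 alternative settings. Whether the change of RVE8 differs from those of its relatives was not tested.

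LIP1, a small GTPase that modulates light input to the clock, rose to 50.6 ± 1.28 CPM in treated seedlings, against 32.9 ± 1.08 CPM in DMSO seedlings. TCP20, a factor that takes part in the morning activation of CCA1, rose to 9.0 ± 0.480 CPM, against 6.54 ± 0.0921 CPM in DMSO seedlings. CHE (listed in the tables as TCP11), a TCP factor that represses CCA1, fell to 8.25 ± 0.561 CPM in treated seedlings, against 16.0 ± 1.68 CPM in DMSO seedlings (log2 fold change -0.95 ± 0.117, adjusted p = 3.06e-05 in edgeR).

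PRMT5, an arginine methyltransferase that acts on the splicing of PRR9, fell to 14.7 ± 1.40 CPM in treated seedlings, against 31.1 ± 1.27 CPM in DMSO seedlings. JMJ30, an evening-phased histone demethylase, fell to 44.5 ± 18.7 CPM, against 97.4 ± 11.6 CPM in DMSO seedlings (adjusted p = 0.0134 in edgeR), with treated replicate 3 at 66.1 CPM and a call that was lost without DMSO replicate 1 (adjusted p = 0.0507). ZTL, the F-box protein that targets TOC1 and PRR5 for breakdown, and PRR3, a partner of TOC1, did not pass, with log2 fold changes of 0.068 (95% interval -0.11 to 0.25) and -0.087 (-0.26 to 0.080).

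**Figure D5:**
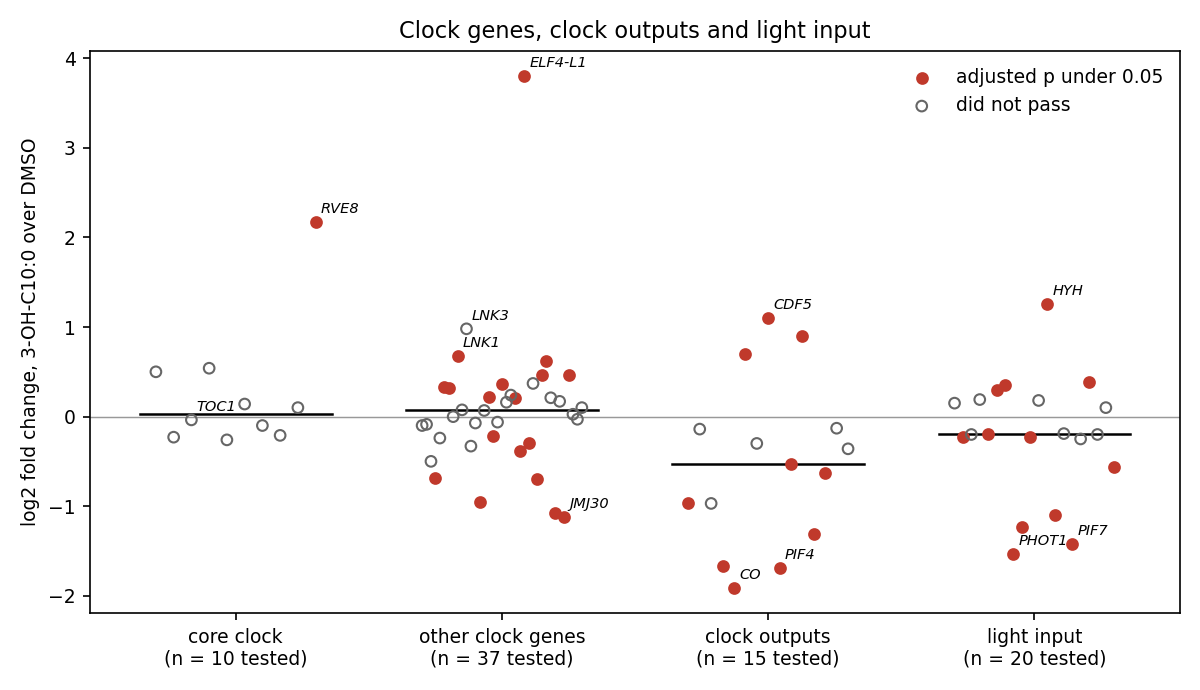
Log2 fold changes, treated over DMSO, of the tested members of the core clock (n = 10), the other clock genes (n = 37), the clock outputs (n = 15) and the light input genes (n = 20); filled points have an adjusted p under 0.05 and bars mark the medians. The core clock has RVE8 as its filled point, and the outputs are spread more widely, with a median of -0.53.

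Among genes known to be driven by the clock, GRP7, PIF4, CO and LHCB1.3 fell. Of 20 clock outputs, 15 were tested, 3 rose, 7 fell and 5 did not pass, which is 66.7% against 71.4% of all tested genes, with a median log2 fold change of -0.53. That share lay near the background, and no test of the difference from the core was made. GRP7, an RNA-binding protein in a feedback loop under CCA1 and LHY, fell to 710 ± 44.4 CPM in treated seedlings, against 1390 ± 245 CPM in DMSO seedlings (log2 fold change -0.97 ± 0.140, adjusted p = 9.62e-05 in edgeR). All 3 treated libraries lay below all 3 DMSO libraries.

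CO, the photoperiodic activator of flowering, fell to 1.11 ± 0.35 CPM in treated seedlings, against 4.23 ± 0.929 CPM in DMSO seedlings, while CDF5 and CDF2, Dof-type repressors of CO, rose by 1.1 and 0.70 on the log2 scale. Of their relatives, CDF3 did not pass (log2 fold change -0.30, adjusted p = 0.241 in edgeR), and CDF1 was too low to be tested, with 3, 6 and 4 counts in treated libraries, against 13, 10 and 16 counts in DMSO libraries. CDF3 and CDF1 were picked out after their values were seen. CO, CDF5 and the CO-like genes COL1 and COL2 overlap opposite-strand genes. COL1 rose by 0.90 and COL2 fell by 1.31. PIF4, a bHLH growth factor repressed by the evening complex, fell to 3.95 ± 1.16 CPM, against 12.6 ± 2.1 CPM in DMSO seedlings. LHCB1.3, a light-harvesting gene of the photosystems, fell to 2930 ± 606 CPM, against 9310 ± 944 CPM in DMSO seedlings, beside the lower sum of leaf markers given above. LHCB1.3 and LHCB1.1 belong to a family of near-identical copies, among which the counting may have split reads, so their values are uncertain.

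Of 20 genes of light input, all tested, 4 rose, 8 fell and 8 did not pass, which is 60.0% called against 71.4% of all tested genes, of which 35.6% rose and 35.8% fell. The blue-light receptors moved in both directions. The phototropins PHOT1 and PHOT2 fell by 1.53 and 1.23 on the log2 scale, and the cryptochromes CRY1 and CRY2, which set the pace of the clock in blue light, rose by 0.30 and 0.35. HYH, a bZIP factor of light signalling, rose to 22.7 ± 3.95 CPM in treated seedlings, against 9.43 ± 0.460 CPM in DMSO seedlings, and FHY3, an activator of phytochrome A signalling, rose by 0.39. PHOT2 overlaps the gene AT5G58150 and PIF7 overlaps the gene AT5G61260, each on the opposite strand. The phytochrome-interacting factors PIF1 and PIF7 fell by 1.1 and 1.42. All 8 of these light input genes kept their call in each of the 13 alternative settings.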

How the data were processed

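RNA-seq of 6 seedling libraries was analysed from tables of estimated counts and FPKM per locus, both deposited by the authors without further normalisation of the counts, per the file headers. The submitters' processing notes name, with no order or role, RSEM, StringTie 1.3.1, HISAT2 2.2.4, Bowtie2 2.2.8 and fastp 0.18.0, and the build TAIR10; library strandedness is not stated there. Of the count values, 3.62% were not whole and were rounded. The FPKM values of the authors were used as deposited.

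Genes were filtered with filterByExpr (minimum count 10) and scaled by TMM in edgeR 4.0.16 (R 4.3.3), and treated and DMSO libraries were compared with the robust quasi-likelihood F test, two-sided, without covariates. P-values were adjusted after Benjamini and Hochberg over all tested genes. The script was tested on simulated counts. Alternatives used DESeq2 1.42.0, limma 3.58.1 on log2(FPKM + 1) and log2(FPKM + 0.1), other scalings, no filter, a replicate block and each library left out.

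Coordinates and upstream sequences were read from RefSeq TAIR10.1 through the locus codes, and overlapping exons of all transcripts count as 1 exon block. The 10 genes and all lists were chosen with earlier results of these data known. Named were the 10 genes, 10 fixed genes, and from each other list the 4 highest and 4 lowest log2 fold changes past the threshold with at least 20 counts; LNK3, LHCB1.1, CDF1, CDF3 and FKF1 are outside this rule.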

Additional observations from a re-analysis of the deposited data

How the results depend on the processing

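RVE8 kept its direction and its call in all 13 alternative settings (log2 fold change 1.12 to 2.48). The count of core genes that rose was 1 to 2 and of those that fell 0 to 2 with single libraries left out. In the same fits, 6618 to 6922 of all tested genes rose and 6530 to 6849 fell, with 19933 to 20024 genes tested. Core genes that fell numbered 2 under total-count scaling, in limma on log2(FPKM + 1), in limma on log2(FPKM + 0.1) and with a replicate block, in each case PRR7 (-0.34, -0.34, -0.35 and -0.27) and ELF4 (-0.29, -0.29, -0.29 and -0.20). Of 19768 tested genes, 7732, 7754, 7733 and 7087 fell in these settings, against 7084 in the main fit. With single libraries left out, LHY ranged from -1.63 to 0.27, PRR7 from -0.41 to -0.18, PRR5 from -0.029 to 0.34 and ELF4 from -0.27 to -0.13. Other clock genes that rose numbered 6 under total-count scaling, where 6410 of all tested genes rose, against 7036 in the main fit. Other clock genes and light input genes that fell numbered 5 each in DESeq2, where 6481 of all tested genes fell, against 7084 in the main fit. Light input genes that fell numbered 5 to 10 with single libraries left out, beside 6530 to 6849 of all tested genes. The causes were not tested. Same-numbered libraries did not deviate together (Pearson r of 0.0264, -0.0159 and 0.0994 over genes for numbers 1, 2 and 3), so the numbers were not taken to pair the libraries. The low counts of CCA1, LHY, PRR9 and RVE8 limit what can be told of them.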

Other observations

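The list members too low in counts to be tested were RVE3, FT, CDF1 and the cold-response factors CBF1, CBF2 and CBF3. FT, the mobile flowering signal, held 9, 14 and 8 counts in treated libraries, against 19, 1 and 5 counts in DMSO libraries. FKF1, the F-box partner of GI, is represented by its own locus and by the assembled locus MSTRG.20743, which carries its synonym ADO3. FKF1 was picked out after its values were seen. The coded locus fell (log2 fold change -0.22, adjusted p = 0.0164 in edgeR), and the assembled locus stood at -0.074 (adjusted p = 0.575 in edgeR).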
